A study of Arabidopsis thaliana with 6 samples.

Results

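LESV (LIKE EARLY STARVATION, locus AT3G55760) and 8 other genes of leaf starch turnover were followed in Arabidopsis thaliana plants short of oxygen. LESV was taken because its signal was higher in 35S:PCO1, and the other genes by their function. Of these 9 genes, 2 have a probe set that names them alone, LESV and PWD (PHOSPHOGLUCAN WATER DIKINASE, AT5G26570), out of 13286 loci with such a probe set. ESV1 (AT1G42430), GWD1 (AT1G10760), SEX4 (AT3G52180), BAM1 (AT3G23920), BAM3 (AT4G17090), ISA3 (AT4G09020) and DPE2 (AT2G40840) have none in the annotation used here and were not analysed here.

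The series comprises 6 one-colour Affymetrix Arabidopsis GeneChip arrays of total RNA, 3 of 35S:PCO1 and 3 of wild type. In 35S:PCO1 the cauliflower mosaic virus 35S promoter, which is active in most tissues, drives PLANT CYSTEINE OXIDASE 1; the number of independent lines is not given in the sources used here. Both genotypes were grown in short days of 8 h light at 22 °C and 16 h darkness at 18 °C. Both were then held for 4 h in the dark at 5% oxygen, starting 2 h into the day, so darkness and low oxygen are shared by both groups and no plants in air were compared. One label gives an age of 4 weeks and whole rosettes, another 5 weeks and whole plants.

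Leaves store part of the carbon fixed by day as starch granules in the chloroplast and break it down at night at a rate tuned to the time until dawn. Breakdown starts with phosphate groups: GWD1 and then PWD phosphorylate glucans at the granule surface, which opens it to beta-amylases and debranching enzymes, and the phosphatase SEX4 removes the phosphate again. Maltose leaves the chloroplast and is used by DPE2 in the cytosol. LESV and its relative ESV1 are starch-bound proteins without known enzyme activity that affect how glucans are arranged in the granule, and many starch genes have a daily rhythm of transcript level.

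LESV had an RMA signal (robust multi-array average, log2 scale) of 8.09, 8.15 and 8.13 in 35S:PCO1 replicates 1, 2 and 3, against 7.31, 7.17 and 7.31 in wild-type replicates 1, 2 and 3. All 35S:PCO1 arrays lay above all wild-type arrays, and the groups did not overlap. The mean was 8.12 ± 0.029 (SD, n = 3) in 35S:PCO1 and 7.27 ± 0.080 (SD, n = 3) in wild type. The log2 difference of 35S:PCO1 minus wild type was 0.86 (SE 0.063), or 1.81-fold. Because LESV was chosen on this contrast, these values describe it and no test is attached to them. In whole tissue, more RNA per cell and more cells holding the transcript cannot be told apart.

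The step between the genotypes was wide beside the spread of the replicates. The lowest 35S:PCO1 array exceeded the highest wild-type array by 0.78 on the log2 scale. The 35S:PCO1 arrays spanned 0.058 and the wild-type arrays 0.14. The pooled SD of LESV was 0.060, against a median of 0.089 over all 22746 probe sets tested, and 22.5% of probe sets had a smaller one. A choice for a robust increase favours a small spread, so these values are descriptive too. Its lowest value came from wild-type replicate 2, and without that array the difference was 0.81.

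**Figure D1:**
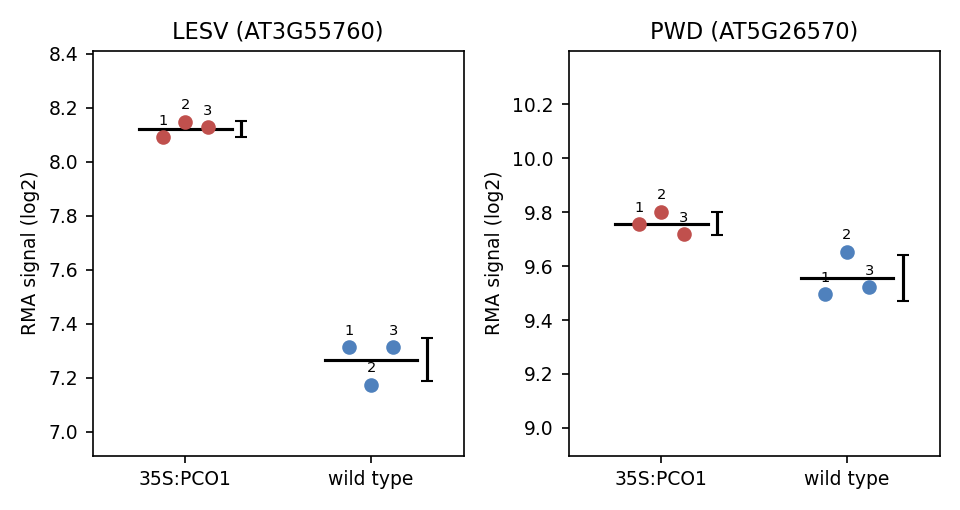
RMA signal (log2) of LESV and PWD on each array, with 35S:PCO1 left of wild type in each panel. Points are arrays numbered by replicate, horizontal lines are group means, bars beside them are ± 1 SD, and both panels span the same log2 range. The LESV groups lie 0.78 apart at their nearest values and the PWD groups 0.065 apart.

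LESV ranked 9 by the size of its increase among the 13513 probe sets that name 1 gene, and 12 among all 22746. Of the 8 probe sets with a larger increase, 4 measure plastid-encoded genes and 3 were called, where a call means a Benjamini-Hochberg adjusted p under 0.05 over all probe sets. Just above LESV stood Hop3 (AT4G12400), a co-chaperone that links HSP70 and HSP90, with a log2 difference of 0.86 (SE 0.12), and AT4G12490 with 0.91 (SE 0.24). Just below it stood the plastid-encoded genes ndhH, a subunit of the chloroplast NADH dehydrogenase-like complex, with 0.78 (SE 0.34), and rpoC1, a subunit of the plastid RNA polymerase, with 0.73 (SE 0.24).

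These neighbours in rank varied more between arrays than LESV did. LESV was chosen for a robust increase, which favours a small spread, so the contrast is descriptive. AT4G12490 had 7.34, 7.06 and 6.21 in 35S:PCO1 against 5.80, 5.98 and 6.11 in wild type, and it was not called (limma, adjusted p = 0.26). Hop3 was called (adjusted p = 0.033) but lay at 3.28 ± 0.055 (SD, n = 3) in wild type, near the lowest values of the table. For ndhH, wild-type replicate 2 had 7.11 where the other wild-type arrays had 8.37 and 8.72, and for rpoC1 it had 6.10 against 7.06 and 7.18. Neither was called (adjusted p = 0.48 and 0.34), and without wild-type replicate 2 their differences were 0.30 and 0.39. LESV was low on the same array by 0.14, a far smaller step. Among 3163 probe sets whose mean signal lay within 0.5 of that of LESV, its increase ranked 3.

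**Figure D2:**
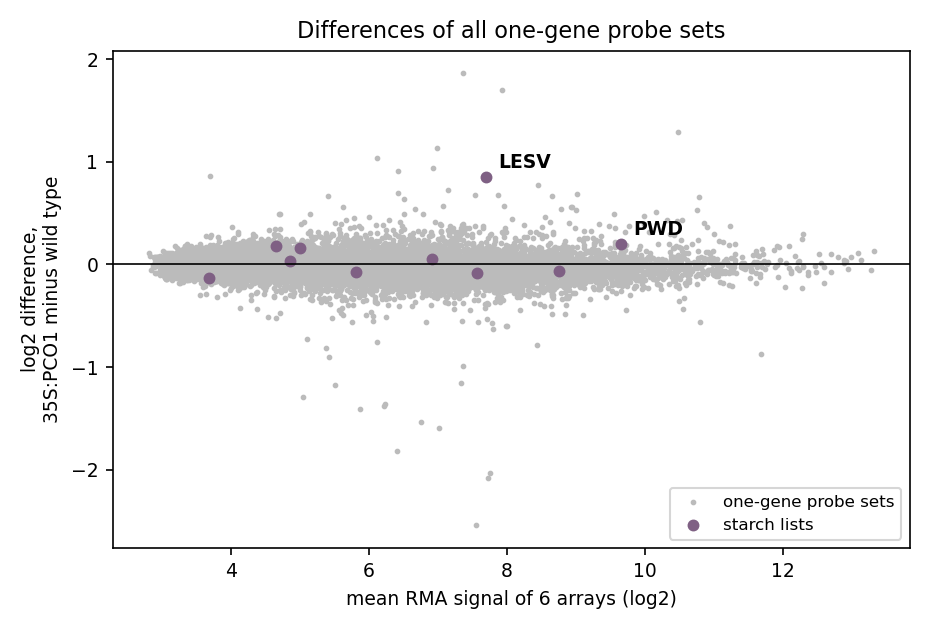
Log2 difference of 35S:PCO1 minus wild type (vertical axis) against the mean log2 RMA signal of 6 arrays (horizontal axis) for the 13513 probe sets that name 1 gene. Starch genes with a probe set are drawn larger. LESV lies at 0.86, PWD at 0.20 and the other 8 between -0.13 and 0.18.

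PWD, which phosphorylates glucans already phosphorylated by GWD1, was the other member measured. Its signal was 9.75, 9.80 and 9.72 in 35S:PCO1 replicates 1, 2 and 3, against 9.49, 9.65 and 9.52 in wild-type replicates 1, 2 and 3. All 35S:PCO1 values lay above all wild-type values, but the nearest pair was only 0.065 apart. The log2 difference was 0.20 (SE 0.065, 95% interval 0.054 to 0.35), or 1.15-fold. PWD did not pass the threshold (limma, unadjusted p = 0.013, adjusted p = 0.34), and an exact permutation test over the arrays gave p = 0.1, which is the lower limit for 3 arrays against 3. Across all 1-gene loci, 0.203% were called in either direction, and in 5.1% the 35S:PCO1 arrays all lay above the wild-type arrays. The order of the PWD arrays alone therefore does not set it apart from many other loci.

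To see the rest of the pathway, 44 loci of starch synthesis, degradation and granule organisation were looked up, and 10 of them had a 1-gene probe set, LESV and PWD included. The 9 besides LESV gave 0 calls in either direction by limma. Only 0.203% of all 1-gene loci were called, so 0 calls among 9 genes do not set them apart from other loci. Of the 9, 2 (PWD and APL3) had an unadjusted p under 0.05, against 9.59% of all 1-gene loci. Their differences ranged from -0.13 to 0.20 on the log2 scale, with a median of 0.038, against a median of -0.013 over the 1-gene loci; 5 were positive and 4 negative. In 3 of the 9, PWD, APL3 and PTST2, the groups did not overlap and 35S:PCO1 was the higher, an order seen in 5.1% of all 1-gene loci. The remaining 34 loci were not analysed here, so these counts cover a minority of the pathway.

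Among genes of starch breakdown, DPE1, a chloroplast glucanotransferase that recycles maltotriose, had 8.77, 8.71 and 8.67 in 35S:PCO1 against 8.76, 8.82 and 8.78 in wild type. The groups overlapped, and the log2 difference was -0.068 (SE 0.059, 95% interval -0.20 to 0.066). AMY1, a secreted alpha-amylase, had 4.90, 4.88 and 4.87 in 35S:PCO1 against 4.87, 4.95 and 4.72 in wild type. Its groups overlapped too, with a difference of 0.038 (SE 0.072, 95% interval -0.13 to 0.20) whose sign turned without wild-type replicate 3. AMY1 was dim in both groups, where RMA compresses changes.

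Starch synthesis was represented by 6 genes. APL3, a large subunit of ADP-glucose pyrophosphorylase, which makes the sugar nucleotide for starch synthases, had 4.80, 4.75 and 4.69 in 35S:PCO1 against 4.40, 4.65 and 4.64 in wild type. Its groups did not overlap and were separated by 0.040 at their nearest values. The difference was 0.18 (SE 0.080, limma adjusted p = 0.47), and APL3 was dim in both groups. APL4, another large subunit of the same enzyme, had 3.67, 3.59 and 3.59 in 35S:PCO1 against 3.65, 3.75 and 3.84 in wild type. The APL4 groups overlapped, at a difference of -0.13 (SE 0.067, adjusted p = 0.56), and its values lay near the bottom of the scale, where RMA compresses changes.

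BE2, a starch branching enzyme, had a difference of -0.079 (SE 0.078), and its groups overlapped. The 3 PTST proteins help starch synthases find their substrate: PTST1 brings granule-bound starch synthase to the granule, and PTST2 and PTST3 act in granule initiation. PTST2 was dim, with 5.16, 5.05 and 5.05 in 35S:PCO1 against 4.79, 4.94 and 5.05 in wild type. The difference was 0.16 (SE 0.078, limma adjusted p = 0.52), with only 0.0036 between the nearest arrays of the groups. PTST3 differed by 0.049 (SE 0.059) and PTST1 by -0.070 (SE 0.14), and both overlapped. PTST1 varied most among the starch genes, with 5.51 on the array of 35S:PCO1 replicate 2 and 6.10 on that of wild-type replicate 3, and its sign turned when either was left out. None of the 9 genes was called in any of the 14 alternative fits that held it.

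**Figure D3:**
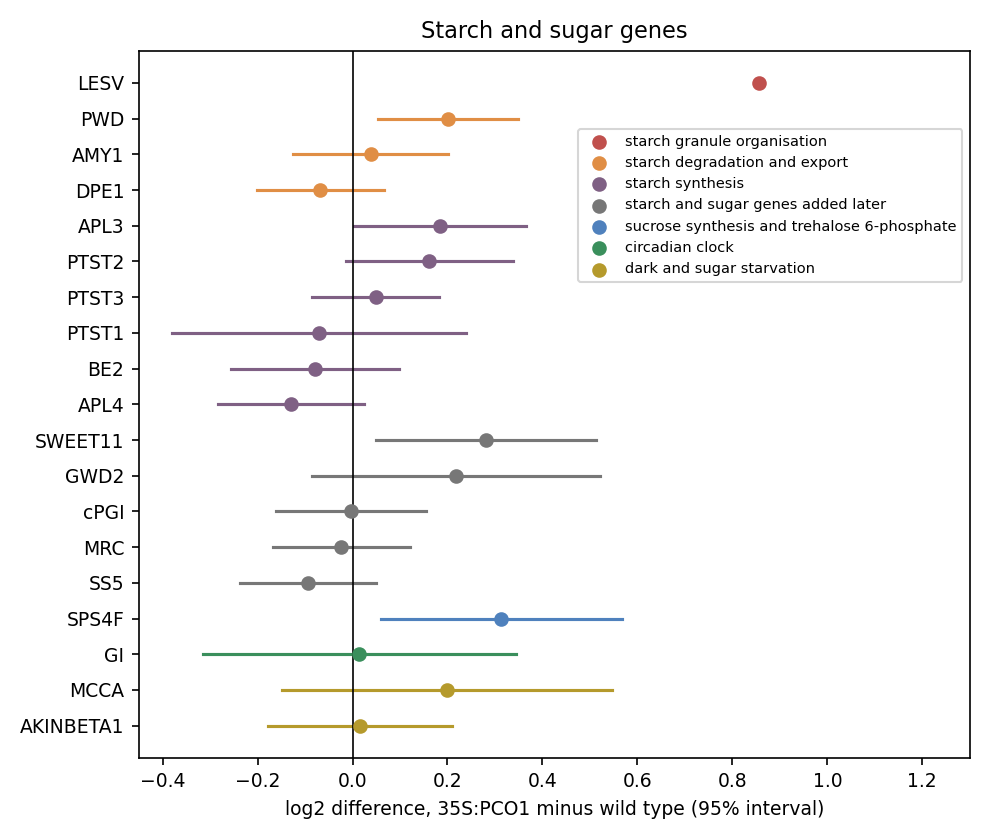
Log2 difference of 35S:PCO1 minus wild type for starch, sugar and clock genes with a 1-gene probe set; points are limma estimates from 3 arrays per group and lines are 95% intervals, with LESV drawn without one because it was chosen on this contrast. LESV lies at 0.86 and the other starch genes between -0.13 and 0.22, where 0.22 is GWD2, a cytosolic relative of GWD1.

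Genes of related processes were sparsely covered. SPS4F, a sucrose phosphate synthase and the 1 gene measured of 11 for sucrose synthesis and trehalose 6-phosphate, had 4.41, 4.31 and 4.09 in 35S:PCO1 against 3.74, 4.04 and 4.09 in wild type. The groups did not overlap, with 0.00078 between their nearest values. The difference of 0.31 (SE 0.11) was not called (limma adjusted p = 0.39), and SPS4F was dim in both groups. GI, a clock protein peaking late in the day and the 1 gene measured of 12 for the circadian clock, differed by 0.015 (SE 0.15), with 7.26, 7.46 and 7.38 in 35S:PCO1 against 7.32, 7.70 and 7.04 in wild type. Of 8 genes raised by darkness or sugar starvation, 2 were measured. MCCA, of leucine breakdown, differed by 0.20 (SE 0.15), with 10.7 in 35S:PCO1 replicate 2 and 10.0 to 10.1 on the other arrays of both groups. AKINBETA1, a subunit of the energy-sensing kinase SnRK1, differed by 0.016 (SE 0.086). Their groups overlapped, and neither GI, MCCA nor AKINBETA1 was called.

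The expression profile closest to that of LESV belonged to AT1G07050, a CCT motif family gene, with a Pearson r of 0.999 over the 6 arrays among all 1-gene probe sets. It had 8.19, 8.24 and 8.19 in 35S:PCO1 against 7.55, 7.48 and 7.56 in wild type, a difference of 0.68 (SE 0.057). Both genes were highest in 35S:PCO1 replicate 2 and lowest in wild-type replicate 2. The next were AT2G30160 (r = 0.991), AT1G50020 (r = 0.984), AT5G38510 (r = 0.983) and ALATS, an alanyl-tRNA synthetase (r = 0.982). The groups lie far apart in LESV, so r mostly carries the step between genotypes: it is a description over arrays that share that step, and 33 probe sets had r above 0.95.

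Within the groups the likeness to LESV was uneven. After each gene's group means were taken off, the correlation of the 6 deviations with those of LESV was 0.93 for AT1G07050 and 0.91 for AT5G38510. It was 0.59 for AT2G30160 and 0.42 for AT1G50020, while for ALATS it was -0.53. The step itself was smaller than in LESV for each of them, at 0.36 for AT2G30160, 0.30 for AT1G50020, 0.15 for AT5G38510 and 0.18 for ALATS. These 5 genes were picked for a profile that holds both the step and these deviations. Both are therefore partly set by the choice, and no test of either is given. PWD, the other member, had r = 0.832 with LESV.

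**Figure D4:**
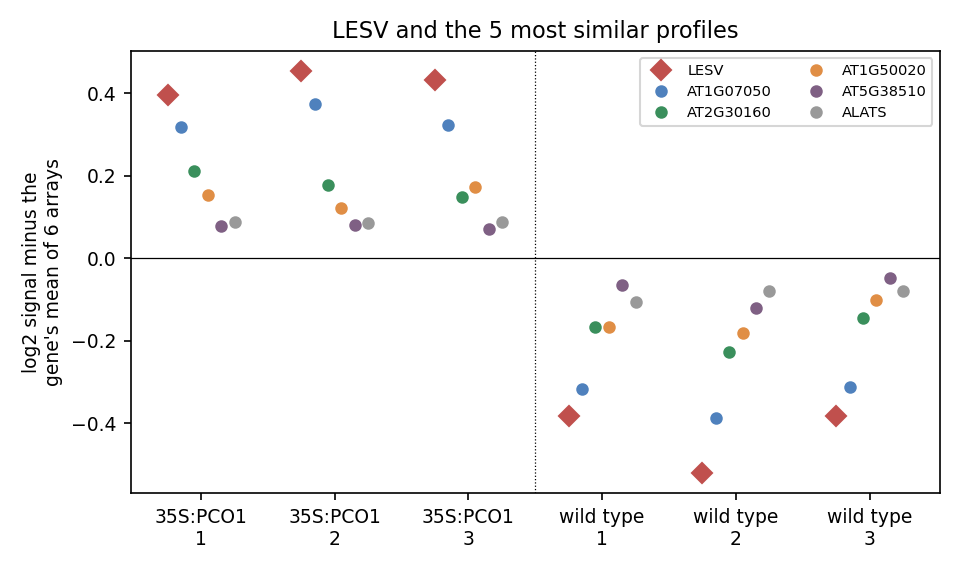
Log2 RMA signal on each array minus the gene's mean of 6 arrays, for LESV (diamonds) and the 5 probe sets with the highest correlation with it, 35S:PCO1 arrays left and wild-type arrays right. All 6 genes lie above 0 in 35S:PCO1 and below 0 in wild type, with the widest step in LESV (0.86) and the narrowest in AT5G38510 (0.15).

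Measures of the whole arrays, of tissue and of RNA quality stood as follows beside these values. Over all probe sets, 16 were called higher and 44 lower (0.264% in all), and arrays correlated at 0.994 to 0.999. All 5 measured of 14 leaf markers (LHCB4.1, LHCB4.2, PSAN, RCA and SBPASE) were bright, with a summed log2 signal of 62.1 to 62.5 in 35S:PCO1 and 62.6 to 62.7 in wild type; 2 were higher, 3 lower and none called. LHCB4.2 differed by -0.18 (SE 0.061, limma adjusted p = 0.37), PSAN by -0.10 (SE 0.065) and LHCB4.1 by -0.056 (SE 0.058). RCA differed by 0.039 (SE 0.055) and SBPASE by 0.024 (SE 0.058). The 3 measured of 14 root markers summed to 17.6 in each 35S:PCO1 array and 17.7 to 18.1 in wild type. All 3 were lower and none was called, the log2 difference being -0.18 for PYK10 (SE 0.097) and -0.10 for EXPA7 (SE 0.088). No flower or seed marker of the lists used could be measured. The 3 prime minus 5 prime signal of the GAPDH controls was 0.42 to 0.44 in 35S:PCO1 and 0.27 to 0.81 in wild type, with the highest value on wild-type replicate 2 (exact permutation p = 1). For actin it was 1.37 to 1.47 in 35S:PCO1 and 1.42 to 1.78 in wild type, again highest on wild-type replicate 2 (exact permutation p = 0.3). For ubiquitin it was 0.94 to 1.00 in 35S:PCO1 and 0.97 to 1.10 in wild type (exact permutation p = 0.4). The part of these differences in the LESV and PWD values was not tested. PCO1 itself has no 1-gene probe set in the annotation used here, so the transgene gave no check of the labels.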

How the data were processed

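RNA of 6 samples was measured on Affymetrix arrays. The deposited log2 values come from RMA, per the submitters' processing notes; the version and probe definition are not given in the sources used here. RMA equalises the arrays and compresses dim values. Of 22810 probe sets, 64 controls were left out and 22746 tested. Names came from the platform annotation, with symbols from the TAIR10.1 gene table matched on gene ID (for names and gene order only): 13513 probe sets name 1 gene, 503 several, and 8730 are not listed. A locus was represented by its 1-gene probe set with the highest mean. Sample titles gave the groups and replicate numbers. Whether replicates are separate plants is not stated in the labels; p-values thus cover only the spread of these 6 samples, part of which may be technical. Precision is limited by the array number.

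The genotypes were compared with limma 3.58.1 in R 4.3.3 (lmFit and eBayes, no covariates, 2-sided), adjusted by Benjamini-Hochberg across the 22746 probe sets, and a threshold of 0.05; the steps were tested on simulated data. The members, gene lists and naming rule were chosen with earlier results of these data known. The rule named the members, the called genes of each list or else its 2 members with the largest change, the 2 probe sets ranked on each side of LESV, the 5 most correlated with it and the 3 nearest measured loci on each side; all 10 measured starch genes are given as well. A further 5 genes (GWD2, SS5, MRC, SWEET11 and the cytosolic phosphoglucose isomerase) were added after the probe annotation was seen. Deviations from the group means had r = -0.059, -0.22 and -0.26 between same-numbered arrays of the genotypes. Between different-numbered arrays r was -0.036 to 0.23. With 3 arrays per group these values cannot tell whether equal numbers mark a pair. A fit with the replicate number as a block is therefore given too.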

Additional observations from a re-analysis of the deposited data

How the results depend on the processing

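The LESV difference lay between 0.81 and 0.90 in all 14 alternative fits (0.81 to 0.88 with 1 array left out; 0.86, SE 0.071, with the replicate number as a block), and PWD between 0.17 and 0.25, never called (adjusted p 0.095 to 0.77; 0.58 with the replicate block). Besides LESV, which was chosen on this contrast, no measured starch gene was called at 0.05 in any fit that held it. Thresholds of 0.01 and 0.1 were applied only to the main fit (all arrays, no covariates or weights), and gave no such call either. With array weights PWD had an adjusted p of 0.095, under the looser threshold. In the fit with array weights, replicate 1 of each genotype weighed most (2.34 in 35S:PCO1, 1.93 in wild type). The weight was 1.16 for 35S:PCO1 replicate 3 and 0.55 to 0.61 for the other arrays. The counts over all probe sets were 16 higher and 44 lower. They became 5 and 21 with the replicate block, 78 and 177 with array weights and 6 and 22 at a threshold of 0.01. With 1 array left out they ranged from 4 to 14 higher and from 19 to 46 lower: 4 and 19 without wild-type replicate 1, 10 and 44 without wild-type replicate 3, 5 and 19 without 35S:PCO1 replicate 1, and 8 and 25 when its replicate 3 was left out; the cause was not tested. The call of Hop3 ended with the replicate block (adjusted p = 0.14) and without 35S:PCO1 replicate 1 or any wild-type array (adjusted p up to 0.25). AT4G12490 was called without 35S:PCO1 replicate 3 (adjusted p = 0.0082). AT2G30160 and AT1G50020 were not called in the main fit (limma adjusted p = 0.057 and 0.13). In the alternative fits AT2G30160 was called in 2 (adjusted p down to 0.014) and AT1G50020 in 1 (adjusted p = 0.028), none of them with an array left out. Small differences changed sign. With array weights these were GI (-0.011), MRC (0.013), BE2 (0.0077), AKINBETA1 (-0.015), PTST1 (0.055) and cytosolic phosphoglucose isomerase (0.063; 0.0043 after centring of arrays, 0.040 after repeated quantile normalization). With 1 array left out the ranges were -0.0097 to 0.31 for MCCA, -0.14 to 0.19 for GI, -0.028 to 0.092 for AMY1, -0.048 to 0.021 for MRC, -0.076 to 0.081 for AKINBETA1, -0.16 to 0.069 for PTST1 and -0.061 to 0.039 for cytosolic phosphoglucose isomerase. For the loci beside LESV they were -0.011 to 0.053 (AT3G55700), -0.16 to 0.041 (AT3G55710), -0.20 to 0.025 (AT3G55720), -0.0070 to 0.14 (AT3G55780) and -0.060 to 0.031 (AT3G55790); none of these genes was called in any fit. Dim probe sets were absent from the fit above the 40th percentile of mean signal.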

Other observations

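The measured loci beside LESV in gene order on its chromosome showed no increase of its size, though most of them were dim. WLIM2b (AT3G55770), the next locus, encodes an actin-binding LIM protein and had 10.97, 11.05 and 11.00 in 35S:PCO1 against 11.07, 11.24 and 11.24 in wild type. All 35S:PCO1 arrays lay below all wild-type arrays, by only 0.017 at the nearest values. How many other loci have that order was not counted, so it is a description only. The difference was -0.17 (SE 0.067, limma adjusted p = 0.43), opposite in sign to that of LESV. The other 5 nearest measured loci overlapped between genotypes, with differences of 0.046 (SE 0.089) for AT3G55780, -0.0083 (SE 0.067) for AT3G55790, -0.11 (SE 0.11) for AT3G55720, -0.072 (SE 0.11) for AT3G55710 and 0.032 (SE 0.063) for AT3G55700. The means of AT3G55790 (3.49 in 35S:PCO1, 3.50 in wild type) and AT3G55700 (3.71 and 3.67) lay near the bottom of the scale, where RMA compresses changes. AT3G55780, AT3G55720 and AT3G55710 were dim as well. None of the 6 neighbours was called, but only 0.203% of all 1-gene loci were. Loci without a 1-gene probe set lie between AT3G55720 and LESV, 5 in all.

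Genes added after the probe annotation was seen included 3 taken for starch metabolism, by function or, for GWD2, by family. GWD2 (AT4G24450), a cytosolic relative of GWD1 that the gene table gives the same symbol as PWD, had 5.96, 5.86 and 6.18 in 35S:PCO1 against 5.76, 6.06 and 5.53 in wild type. Its groups overlapped at a difference of 0.22 (SE 0.13, adjusted p = 0.62). SS5, a starch synthase relative without the full catalytic part, differed by -0.093 (SE 0.063), and MRC, a coiled-coil protein of granule initiation, by -0.024 (SE 0.063). SWEET11, a sucrose exporter of leaf phloem cells, had 9.61, 9.26 and 9.65 in 35S:PCO1 against 9.24, 9.26 and 9.18 in wild type. Its groups were separated by 0.00087, because 35S:PCO1 replicate 2 lay at the wild-type level, and the difference was 0.28 (SE 0.10, adjusted p = 0.40). The cytosolic phosphoglucose isomerase (AT5G42740) differed by -0.0034 (SE 0.069). None of the 5 was called, where 0.203% of all 1-gene loci were.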
